A study of Saccharomyces cerevisiae with 91 samples.

Results

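The restriction sites that fall inside promoter nucleosome-depleted regions (NDRs) of Saccharomyces cerevisiae were described for the 3 enzymes BamHI, EcoRV and KpnI. A site was a member when its listed cut lay between the -1 and the +1 nucleosome dyad of a protein-coding transcript, that is of 1 of the 4536 ORF rows in the deposited table of promoter coordinates, of which 4485 give both dyads. This rule took 433 of 7787 listed cut sites, made up of 68 of 1662 for BamHI, 270 of 4221 for EcoRV and 95 of 1904 for KpnI. The members are positions in the genome, not measurements of a cut library. Apart from the in vivo dyads, the rule uses no readout. Because a promoter shared by divergent genes has its dyads listed for both, 62 sites lay in the NDRs of 2 ORFs, and the 433 sites gave 495 pairs of a site and a promoter in 466 promoters.

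The series has 91 libraries in all, and the cuts belong to 8 of them. A plasmid library of the yeast genome, grown in Escherichia coli, was cut with 1 of the enzymes before nucleosomes were assembled on it by salt gradient dialysis with histones from Drosophila melanogaster embryos at a histone to DNA ratio of 0.4, and positions were read by MNase-seq with single-end reads. BamHI chromatin was made with INO80 in 2 libraries and without a remodeler in 2, and EcoRV and KpnI chromatin each in 1 library with and 1 without. No per-library values were analysed here, so the results below are counts and distances of sites. Their intervals cover counting error only and leave out any error in the dyads. The +1 and -1 dyads come from 1 in vivo MNase-seq library of the strain BY4741 and are therefore not positions on the cut plasmids.

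A nucleosome wraps its DNA around a histone octamer with the dyad at the centre, and the core reaches 73 bp to each side of it. The NDR is the stretch of promoter between the -1 nucleosome and the +1 nucleosome, the first nucleosome of the transcribed region, and it holds most binding sites for transcription factors. Here it is measured from dyad to dyad, so NDR lengths and positions take in the inner 73 bp of both cores. INO80 is a remodeler that uses ATP to move nucleosomes along DNA. BamHI leaves 5′ overhangs, KpnI leaves 3′ overhangs and EcoRV leaves blunt ends, so each enzyme offers a DNA end of another kind at a known base. A cut over 73 bp from both dyads lies outside both cores, in DNA that neither of these nucleosomes covers in vivo, whereas a cut within 73 bp of a dyad would lie inside the footprint that nucleosome has in vivo.

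The sites below were chosen to show 1 example of each class. Recognition sequences are in capitals, 12 bases are given to each side, and all are written 5′ to 3′ along the transcription of the named gene on the build R64. MRPL44 and UGP1 hold cuts outside both cores close to the TSS, SDS23 holds a cut exactly 73 bp upstream of the +1 dyad, HHT1 holds a cut in the -1 core and PCK1 holds a cut inside its own coding sequence.
MRPL44 BamHI chrXIII:721447-721476 (- strand): agataaacttatGGATCCtcaaatagagga
UGP1 KpnI chrXI:369740-369769 (+ strand): gttcttccagcaGGTACCatgagattgaag
SDS23 EcoRV chrVII:397722-397751 (- strand): tataaacttagcGATATCatctcgtacaga
HHT1 KpnI chrII:256178-256207 (+ strand): atttttctttttGGTACCctccacggctcc
PCK1 KpnI chrXI:631896-631925 (+ strand): tttggcctaagtGGTACCgggaaaaccact

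All 433 members sat on the recognition sequence of their enzyme, and the lists held every such sequence on the 16 nuclear chromosomes, 1657 for BamHI, 4202 for EcoRV and 1904 for KpnI. The members were 4.10% of the nuclear BamHI sites, 6.43% of the EcoRV sites and 4.99% of the KpnI sites. ORF NDRs cover 1060092 bp, each position counted once. Their share of the nuclear genome was not computed, so whether NDRs hold fewer or more sites than that share was not tested. Of all 4485 ORF promoters, 10.4% held at least 1 of the 433 sites. No 147-bp window centred on a member had a second copy in the genome, and 1 EcoRV member had a 50-bp window that occurred again. The nearest site of the same enzyme was at a median of 1002.5 bp from an EcoRV member, 1748 bp from a BamHI member and 2161 bp from a KpnI member, and 3 BamHI, 19 EcoRV and 8 KpnI members had one within 147 bp.

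BamHI differed from EcoRV and KpnI in the share of its sites outside both cores. Of the BamHI members, 14 of 68 (20.6%, 95% Wilson interval 12.7 to 31.6) lay outside the cores of every ORF promoter that held them, against 105 of 270 (38.9%, 33.3 to 44.8) for EcoRV and 37 of 95 (38.9%, 29.8 to 49.0) for KpnI. The background is that 45.3% of all ORF NDR positions, each position counted once, lie outside both cores. BamHI differed from EcoRV by -18.3 percentage points (95% Newcombe interval -28.2 to -5.90, two-sided Fisher's exact test, adjusted p = 0.0135 over 3 pairs of enzymes) and from KpnI by -18.4 points (-31.1 to -3.98, adjusted p = 0.0244). KpnI and EcoRV differed by 0.0585 points (-10.9 to 11.6, Fisher's exact test, adjusted p = 1), an interval that allows differences of several points either way. The test compares lists of sites with each site as 1 observation, and says nothing of libraries. The lists are complete for the nuclear chromosomes and some sites are close neighbors. Its p-values and intervals therefore describe a model of independent sites, not a sample drawn from more sites. In the NDRs that held the sites, 48.9% of positions lay outside both cores for BamHI, 49.8% for EcoRV and 49.8% for KpnI. The median NDR length by pair was 274 bp, 275 bp and 274 bp, with lower quartiles of 230 bp, 244 bp and 245 bp, and 5 of 78 BamHI, 7 of 303 EcoRV and 5 of 102 KpnI promoters had an NDR of 147 bp or less. The part of NDR length in the difference was not tested. With a core of 80 bp to each side of the dyad the BamHI share was 13.2%, and with 60 bp it was 29.4%.

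Many of the BamHI members lay in coding sequence. Such positions made up 22 of 68 BamHI sites (32.4%, 95% Wilson interval 22.4 to 44.2), 35 of 270 EcoRV sites (13.0%, 9.47 to 17.5) and 21 of 95 KpnI sites (22.1%, 14.9 to 31.4), beside 10.6% of all ORF NDR positions. Among sites outside coding sequence, an alternative chosen after seeing the data, 11 of 46 BamHI sites (23.9%), 101 of 235 EcoRV sites (43.0%) and 34 of 74 KpnI sites (45.9%) lay outside both cores, and 48.8% of the noncoding ORF NDR positions did. BamHI then differed from EcoRV by -19.1 points (Fisher's exact test, adjusted p = 0.0307) and from KpnI by -22.0 points (adjusted p = 0.0307). The GC content of the 50 bp to each side of the site had a median of 39% for BamHI, 36% for EcoRV and 37% for KpnI members, and the ORF NDRs had a median of 35.5%. The part of base composition in the difference was not tested.

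**Figure D1:**
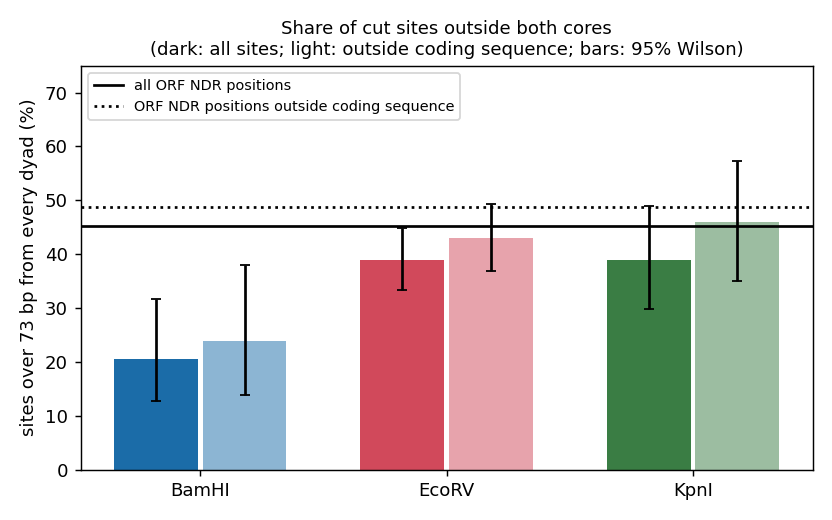
Share of cut sites over 73 bp from every dyad (y axis, %) for each enzyme (x axis), for all sites (dark bars) and for sites outside coding sequence (light bars), with 95% Wilson intervals as error bars. The solid line is the share of all ORF NDR positions (45.3%) and the dotted line that of the noncoding ones (48.8%), and the BamHI bars, at 20.6% and 23.9%, are the lowest.

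Counted as pairs of a site and a promoter, the cuts fell in the +1 core, the -1 core or outside both. BamHI gave 33 pairs in the +1 core, 31 in the -1 core and 15 outside. EcoRV gave 104, 82 and 123, and KpnI gave 30, 35 and 42. No pair lay within 73 bp of both dyads at once. The 37 bp next to the +1 dyad (0 to 36 bp) held 22.8% of the BamHI pairs, 19.7% of the EcoRV pairs and 12.1% of the KpnI pairs, beside 13.7% of all NDR positions, and the stretch from 74 to 110 bp upstream of the dyad held 8.86%, 9.06% and 4.67%, beside 13.7%.

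**Figure D2:**
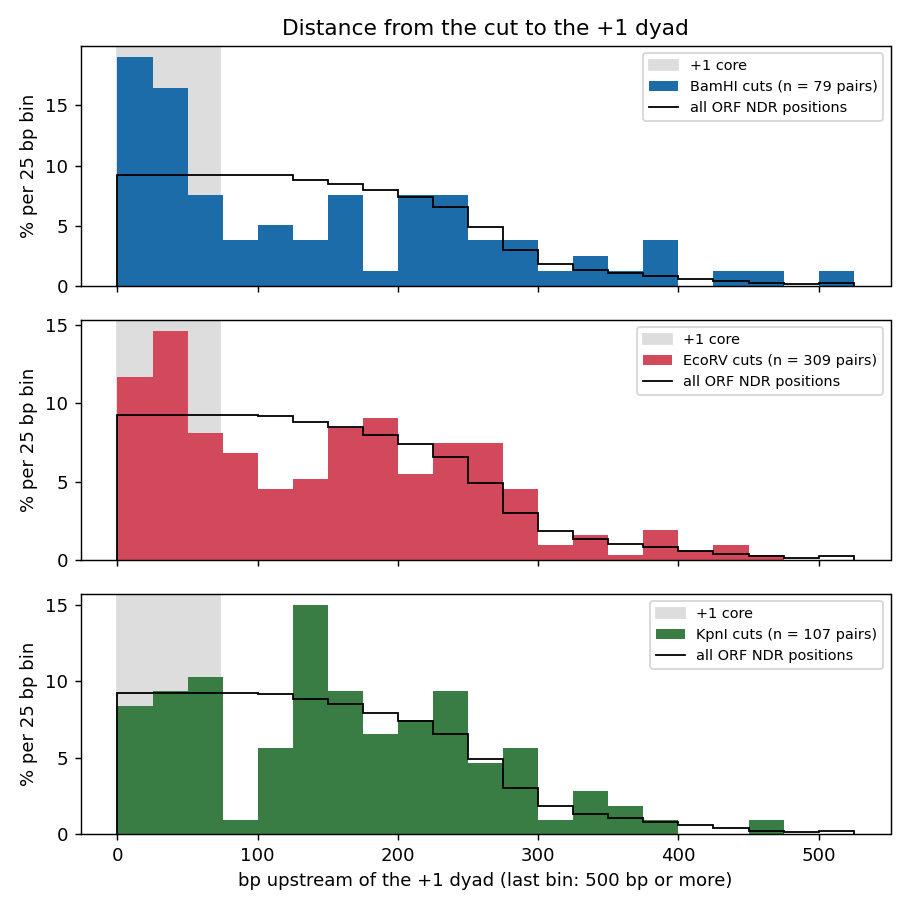
Distance from each cut to the +1 dyad (x axis, bp upstream) as the percentage of pairs in 25-bp bins (y axis), for BamHI (79 pairs), EcoRV (309) and KpnI (107), with all ORF NDR positions as a black outline and the +1 core shaded. The BamHI bars are highest inside the +1 core, where 33 of 79 pairs lie.

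The median distance to the +1 dyad was 104 bp for BamHI (quartiles 37.5 and 239), 144 bp for EcoRV (47 and 226) and 150 bp for KpnI (66.5 and 225.5), and 135 bp for all ORF NDR positions. To the -1 dyad it was 142 bp (37 and 230), 129 bp (70 and 214) and 119 bp (56.5 and 209). The BamHI distances were therefore spread to both ends of the NDR, with the lower quartile near 37 bp from either dyad. Relative to the TSS the median cut of KpnI lay at -95 bp, that of EcoRV at -75 bp and that of BamHI at -59 bp, and the median NDR position at -72 bp. Cuts upstream of the TSS were 57 of 79, 223 of 309 and 80 of 107 pairs, or 72.2%, 72.2% and 74.8%, beside 75.3% of all NDR positions. The stretch of 51 to 100 bp upstream of the TSS held 5 BamHI, 35 EcoRV and 20 KpnI pairs, or 6.33%, 11.3% and 18.7%, beside 16.8% of positions. These distances are bounded by the rule and were not tested.

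**Figure D3:**
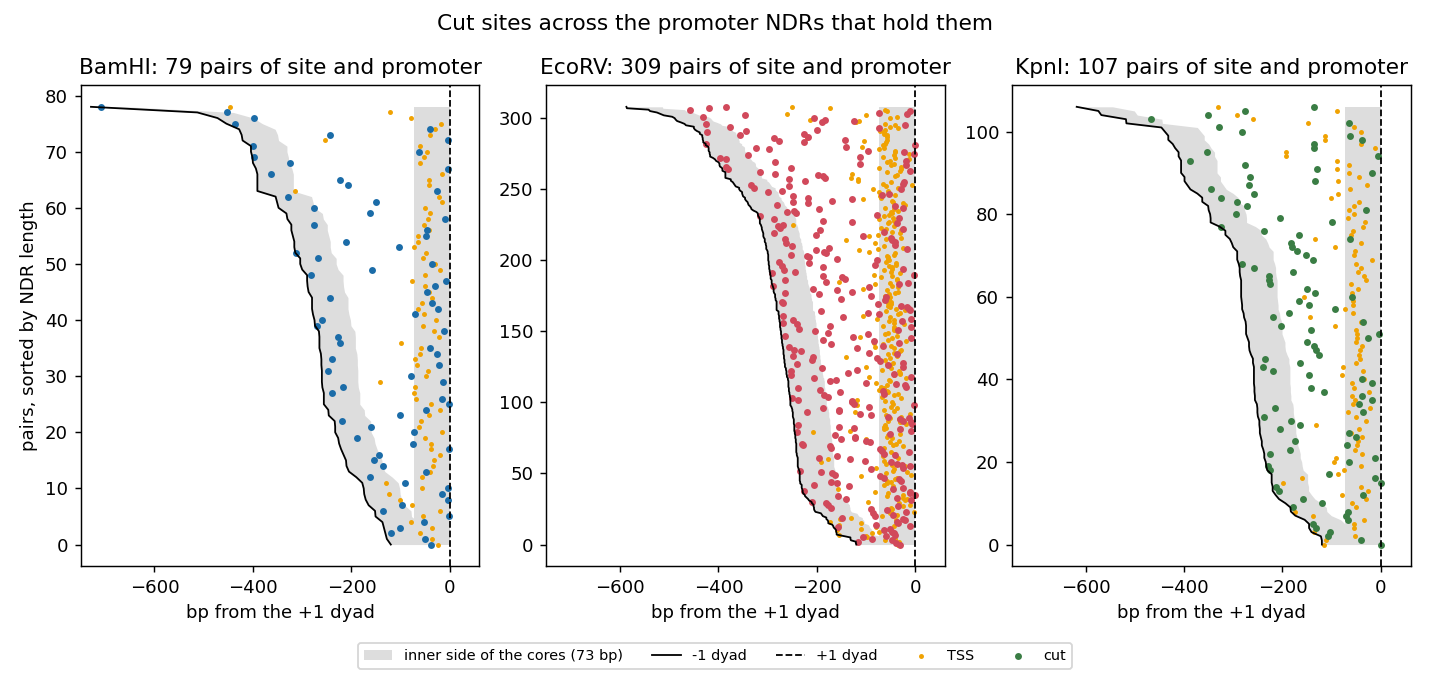
Every pair of a site and a promoter (rows, sorted by NDR length) for BamHI, EcoRV and KpnI, with the distance from the +1 dyad on the x axis in bp, the cut as a colored dot, the TSS as an orange dot, the -1 dyad as a black line and the inner side of both cores in gray. BamHI cuts crowd into the gray bands, with 15 of 79 pairs between them.

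The 15 BamHI pairs outside both cores came from 14 sites. The cut closest to the TSS was that of MRPL44, a protein of the large subunit of the mitochondrial ribosome, 30 bp upstream of the TSS and 79 bp upstream of the +1 dyad. ABF2, which packages mitochondrial DNA, and the divergent TVP18 share a cut 104 bp and 212 bp from their +1 dyads. YIL057C held a cut 74 bp upstream of the +1 dyad, the least that counts as outside. NMA2, an enzyme of NAD synthesis, held its cut 38 bp downstream of the TSS and inside its own coding sequence, 91 bp from the +1 and 87 bp from the -1 dyad. PRP3, a splicing factor, held a cut 59 bp upstream of the TSS. In ECM30 and YOL048C the cut lay in the coding sequence of the upstream gene, 74 bp and 75 bp from the -1 dyad. Listed cuts are those of the top strand. Measured from the centre of the recognition sequence, both fall in the -1 core, and the BamHI share outside both cores was 17.6%. The remaining pairs were in GTS1, YMR295C, YNL217W, PHO91, ECM3 and RPL7B.

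PHO91, a vacuolar phosphate transporter, was the only promoter with more than 1 BamHI site, and both lay outside both cores. The cuts were 18 bp apart, 206 bp and 224 bp upstream of the +1 dyad and 185 bp and 167 bp downstream of the -1 dyad, in an NDR of 391 bp. The letters TTACCC, the core of the motif of the regulatory factor Reb1, abut the distal site, and the letters CACGTG, the E-box read by basic helix-loop-helix factors such as Cbf1 and Pho4, overlap the proximal one. TTACCC was found on either strand in 18.1% of the 4485 ORF NDRs and CACGTG in 3.72%.
PHO91 BamHI and BamHI chrXIV:651901-651948 (- strand): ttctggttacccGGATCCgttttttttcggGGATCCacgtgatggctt

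Of the EcoRV pairs outside both cores, the 5 closest to the TSS were in GAS1, which remodels cell wall glucan, at -11 bp, UBC12, a conjugating enzyme for the ubiquitin-like Rub1, at -12 bp, SET5, a histone methyltransferase, at -15 bp, SAM4, of methionine metabolism, at -16 bp and VPS4, the ATPase that takes ESCRT-III apart, at -20 bp. All 5 cuts lay 83 to 127 bp upstream of the +1 dyad. For KpnI they were in UGP1, which makes UDP-glucose, at -19 bp, in the transcript listed for CDC16 and MAK11 at -21 bp, in QNQ1 at -33 bp, in SSK22, a kinase of the osmotic stress pathway, at -39 bp and in YLR179C at -47 bp, between 94 and 164 bp from the +1 dyad. Of all 180 pairs outside both cores, 175 had the cut upstream of the TSS. In 51 of the 180 the cut was within 20 bp of the edge of a core, and in 67 it was over 50 bp from the edges of both.

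A cut exactly 73 bp upstream of a +1 dyad would put a DNA end at the edge of the +1 core. Within 10 bp of that base lay 5 of 79 BamHI pairs, 22 of 309 EcoRV pairs and 7 of 107 KpnI pairs, or 6.33%, 7.12% and 6.54%, beside 7.76% of all ORF NDR positions. The nearest were SDS23 at 73 bp, APD1 and VTS1 at 74 bp for EcoRV, YBR224W at 72 bp, YIL057C at 74 bp and SAR1, a GTPase of COPII vesicles, at 70 bp for BamHI, and PCK1, of gluconeogenesis, at 72 bp, YNL011C at 68 bp and YME1, a mitochondrial protease, at 67 bp for KpnI.

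At the ends of the range, the cut closest to a +1 dyad was 1 bp away for BamHI, in RAD28, a gene of DNA repair, and on the dyad itself for EcoRV in VAC17, of vacuole inheritance, and for KpnI in SPI1, a cell wall protein. The farthest was 709 bp away for BamHI in HRP1, an RNA-binding protein of mRNA 3′ end processing, 457 bp for EcoRV in YCS4, a condensin subunit, and 468 bp for KpnI in ENT5, of vesicle traffic. Just outside the rule, within 20 bp beyond a +1 dyad, lay 9 BamHI, 38 EcoRV and 15 KpnI sites that were not members, and within 20 bp inside it lay 13, 31 and 9 members. Beyond a -1 dyad the counts were 12, 28 and 18 outside, and 13, 29 and 14 inside.

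Divergent promoters, in which the nearest coding gene upstream is on the opposite strand, made up a share of the promoters with a site that was close to their share of all promoters. They were 41 of 78 BamHI promoters (52.6%, 95% Wilson interval 41.6 to 63.3), 154 of 303 EcoRV promoters (50.8%, 45.2 to 56.4) and 56 of 102 KpnI promoters (54.9%, 45.2 to 64.2), beside 52.8% of the 4481 ORF promoters that could be classed. All 62 sites in 2 ORF NDRs lay between genes on opposite strands, 11 for BamHI, 39 for EcoRV and 12 for KpnI. A promoter of such a site was still classed as tandem where its nearest annotated gene was on the same strand. Examples are STE7, which shares its site with DHH1, and RPS20, which shares its site with DUR3. By pairs, 8 of 42 divergent and 7 of 37 tandem BamHI pairs lay outside both cores, or 19.0% and 18.9%. For EcoRV these were 69 of 156 and 54 of 153, or 44.2% and 35.3%, and for KpnI 23 of 60 and 19 of 47, or 38.3% and 40.4%.

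Most pairs lay upstream of the TSS in DNA that no gene codes in, 42 of 79 for BamHI, 204 of 309 for EcoRV and 70 of 107 for KpnI. Between the TSS and the start codon lay 12, 66 and 13 pairs. The gene's own coding sequence held 11, 21 and 16 pairs, and the coding sequence of another gene 14, 18 and 8. Across the chromosomes, members numbered from 2.68 per 10 kb of ORF NDR on chromosome III to 6.81 on chromosome I, where 10 sites lay in 14677 bp.

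An NDR with more than 1 site was rare. It was found in 29 of the 466 promoters, each with 2 sites, of which 17 had sites of more than 1 enzyme and 12 had 2 sites of 1 enzyme. Divergent promoters that share dyads and both sites count as 2 here, as in YEH2 and IRC25, SSK22 and SOL2, and YNL010W and YNL011C. IRC4 had an EcoRV and a KpnI cut 5 bp apart, both outside both cores, at 186 bp and 181 bp from the +1 dyad. VPS4 also had both an EcoRV and a KpnI cut outside both cores, 46 bp apart. BUD7 had 2 KpnI cuts 7 bp apart in the -1 core, and KEL2 had 2 KpnI cuts 24 bp apart in the +1 core and in its own coding sequence. These promoters offer ends of 2 kinds, or of 1 kind in close series, at almost the same place.
IRC4 KpnI and EcoRV chrIV:1517879-1517915 (- strand): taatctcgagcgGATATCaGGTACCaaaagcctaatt
VPS4 EcoRV and KpnI chrXVI:887904-887977 (- strand): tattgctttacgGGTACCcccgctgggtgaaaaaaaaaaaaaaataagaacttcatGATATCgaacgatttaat
BUD7 KpnI and KpnI chrXV:878215-878251 (+ strand): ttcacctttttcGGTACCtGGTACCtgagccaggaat
KEL2 KpnI and KpnI chrVII:968644-968697 (- strand): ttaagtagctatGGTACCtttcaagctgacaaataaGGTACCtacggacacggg

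Cuts of different enzymes were also close in ACM1 (BamHI and EcoRV, 42 bp apart) and ECM3 (EcoRV and BamHI, 47 bp). The divergent YNL010W and YNL011C share an EcoRV and a KpnI cut 54 bp apart. In the promoters named next they were farther apart. MED2, a Mediator subunit, had a BamHI cut 30 bp and a KpnI cut 283 bp upstream of the +1 dyad in an NDR of 289 bp. SRM1, the exchange factor of the GTPase Ran, had a BamHI cut at 48 bp and an EcoRV cut at 315 bp. QRI7, of mitochondrial tRNA modification, had an EcoRV cut at 8 bp and a BamHI cut at 144 bp, the latter in the -1 core. ENT5 had an EcoRV cut at 17 bp and a KpnI cut at 468 bp, and SDT1, a nucleotidase, an EcoRV cut at 15 bp and a KpnI cut at 170 bp, the latter outside both cores.

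Among the families of genes, the INO80 complex itself had a site in 2 of its 14 measured promoters, both EcoRV and both outside both cores. This share was 14.3% (95% Wilson interval 4.01 to 39.9), beside 10.4% of all ORF promoters. In IES4 the cut lay 95 bp upstream of the +1 dyad and 59 bp upstream of the TSS, 34 bp from the centre of a TTACCC motif. In ARP8, an actin-related subunit, it lay 242 bp upstream of the +1 dyad and 78 bp from the -1 dyad, so that 5 bp remain to the edge of the -1 core. The stretches below run between the transcripts of the table on either side and inside the dyads, for these genes and for ABF2 and BAT1, and end at the base before the TSS of the named gene.
IES4 chrXV:689347-689599 (+ strand): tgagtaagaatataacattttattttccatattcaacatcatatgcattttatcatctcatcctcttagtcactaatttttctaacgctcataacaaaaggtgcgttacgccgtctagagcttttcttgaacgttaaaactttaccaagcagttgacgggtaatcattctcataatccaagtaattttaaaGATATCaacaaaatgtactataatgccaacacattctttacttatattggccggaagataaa
ARP8 chrXV:592622-592839 (- strand): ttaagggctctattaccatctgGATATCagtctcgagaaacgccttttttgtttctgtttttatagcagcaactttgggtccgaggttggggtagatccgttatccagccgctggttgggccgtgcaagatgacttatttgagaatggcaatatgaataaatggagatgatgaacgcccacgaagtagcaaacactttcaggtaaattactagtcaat
ABF2 chrXIII:411351-411528 (+ strand): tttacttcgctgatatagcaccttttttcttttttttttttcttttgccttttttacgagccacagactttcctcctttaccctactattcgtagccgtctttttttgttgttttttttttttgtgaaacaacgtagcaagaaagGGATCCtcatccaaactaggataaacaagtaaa
BAT1 chrVIII:517261-517482 (+ strand): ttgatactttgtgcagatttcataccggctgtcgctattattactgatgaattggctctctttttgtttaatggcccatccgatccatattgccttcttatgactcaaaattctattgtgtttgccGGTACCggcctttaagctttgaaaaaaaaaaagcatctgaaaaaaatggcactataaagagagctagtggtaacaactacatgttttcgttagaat

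The shares of the cytosolic and of the mitochondrial ribosomal proteins lay on either side of the background. Of 131 promoters of cytosolic ribosomal proteins 8 held a site (6.11%, 95% Wilson interval 3.13 to 11.6), 2 of them with a site outside both cores, and of 58 promoters of mitochondrial ribosomal proteins 10 did (17.2%, 9.64 to 28.9), 3 of them outside. The background is the 10.4% of all ORF promoters, which both intervals take in. The gene name MRP8 also fits the mitochondrial list, but the annotation gives no ribosomal function for it, and it was left out after its site was seen. With it the count was 11 of 59 (18.6%, 10.7 to 30.4). RPL7B held a BamHI and a KpnI cut, 244 bp and 135 bp upstream of the +1 dyad, and RPS31 an EcoRV cut at 248 bp, all outside both cores. In the mitochondrial group MRPL44, MRP7 and RSM26 had the cut outside both cores, at 79 bp, 154 bp and 226 bp, and MRPL36 had a KpnI cut in the +1 core at 37 bp. The median NDR length was 242 bp in the cytosolic and 270.5 bp in the mitochondrial group.

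In the list of enzymes of glycolysis, gluconeogenesis and fermentation, 4 of 24 promoters held a site (16.7%, 95% Wilson interval 6.68 to 35.9, beside 10.4% of all ORF promoters), and these were KpnI sites. Of all 466 promoters with a site, 102 held a KpnI site, and whether the list differs from that was not tested. HXK1, a hexokinase, had its cut 277 bp and PFK1, a phosphofructokinase subunit, 136 bp upstream of the +1 dyad, both outside both cores, and the PFK1 cut lay 194 bp downstream of the TSS in an NDR of 618 bp. CDC19, pyruvate kinase, had 2 cuts, 354 bp and 7 bp from the +1 dyad, in the -1 and the +1 core, and PCK1 had 1 at 72 bp. Of the 8 promoters of histone genes 2 held a site (25%, 95% Wilson interval 7.15 to 59.1, beside 10.4% of all ORF promoters), the H3 genes HHT1 and HHT2. HHT1 had a KpnI cut 204 bp from the +1 dyad and 70 bp from the -1 dyad, and HHT2 a BamHI cut 4 bp from the +1 dyad.

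The family shares that follow stand beside the 10.4% of all ORF promoters with a site. No background was computed for promoters with a site outside both cores. Of 94 promoters of amino acid biosynthesis 10 held a site (10.6%), and 4 of them outside both cores. These were ARG81, an arginine-responsive transcription factor, and MET1, of siroheme synthesis, for EcoRV, at 128 bp and 270 bp, and BAT1, a branched-chain aminotransferase, and PRO1, of proline synthesis, for KpnI, at 142 bp and 187 bp. RNA processing and ribosome biogenesis had a site in 13 of 82 promoters (15.9%), 6 of them outside. By its name the list takes in MAK31, a subunit of an N-terminal acetyltransferase, whose EcoRV cut lay outside both cores at 96 bp, and it also holds REI1 (KpnI, 126 bp) and NOP58 (EcoRV, 188 bp). The respiratory chain and ATP synthase, with assembly factors such as ATP10 and COX20, had 7 of 38 (18.4%). Of these SDH3, of succinate dehydrogenase, was alone outside both cores at 87 bp. Mating pheromone response had 4 of 20 (20%), with the kinases STE7 at 129 bp and STE20 at 297 bp outside. In DNA repair 4 of 50 (8%) held a site. RAD24, of the checkpoint clamp loader, was outside at 84 bp and RAD53, the checkpoint kinase, in the +1 core at 44 bp.

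Of 30 promoters of heat shock proteins and chaperones 3 (10%) held a site, with SIS1 at 384 bp and STI1 at 248 bp outside both cores. Of 35 proteasome promoters 3 (8.57%) did, with PRE9 at 94 bp and SCL1 at 159 bp outside. Other remodelers had 5 of 40 (12.5%), with HTL1, an RSC subunit, outside at 177 bp and SNF5, of SWI/SNF, in the +1 core at 19 bp. The HTL1 cut is the same site as that of the divergent MAK31 and counts in both families. The same holds for MRP51, in the mitochondrial ribosomal list, and DBP1, in the RNA processing list. Cyclins had 2 of 19 (10.5%), CLN1 and CLB4, both in the -1 core, and hexose transporters 1 of 3 (33.3%), HXT8. The phosphate pathway had PHO91 alone of 14 (7.14%), and inositol and phospholipid synthesis CHO1 alone of 23 (4.35%). None of 29 RNA polymerase subunits, 8 general regulatory factors and 4 galactose genes held a site. The Wilson intervals of all 20 families took in the background share, and no share of a family was tested.

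**Figure D4:**
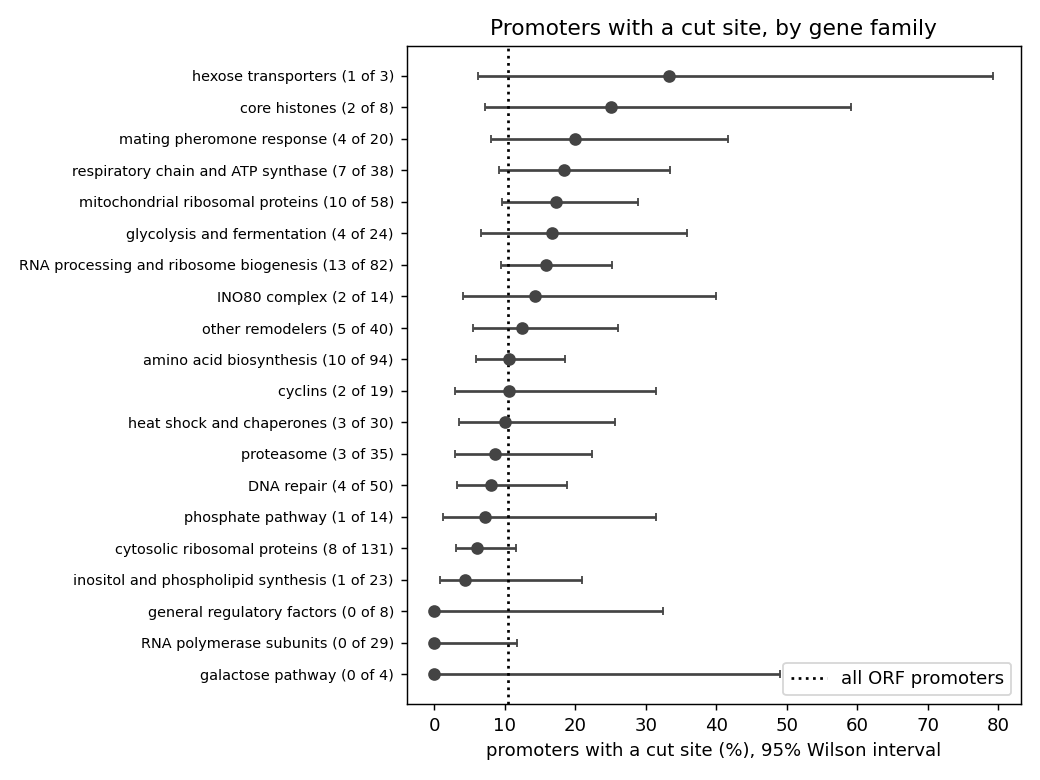
Percentage of promoters with a cut site of any enzyme (x axis) for each of the 20 gene families (y axis, with the count), as points with 95% Wilson intervals, and the share of all ORF promoters (10.4%) as a dotted line. The points run from 0 of 29 RNA polymerase subunits to 1 of 3 hexose transporters, and all 20 intervals cross the line.

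Motif letters were searched on both strands between the dyads. TTACCC was in 21 of 78 BamHI promoters (26.9%, 95% Wilson interval 18.3 to 37.7), 63 of 303 EcoRV promoters (20.8%, 16.6 to 25.7) and 13 of 102 KpnI promoters (12.7%, 7.60 to 20.6), beside 18.1% of all ORF NDRs. The median distance from the cut to the centre of the nearest TTACCC was 109 bp, 92 bp and 99 bp. The closest were 6 bp in YDR051C, 7 bp in PAN6 and in SIN3, a subunit of a histone deacetylase complex, and 8 bp in GTS1, PHO91 and PEX31, with each of these cuts outside both cores. Of all 100 pairs with a TTACCC in the NDR, 32 had the cut outside both cores, beside 180 of all 495 pairs. In YMR147W the cut lay 14 bp from the motif and in the -1 core. A run of 6 A or 6 T was in 55.1%, 73.6% and 61.8% of the promoters, beside 68.0% of all, and TATAAA in 38.5%, 43.9% and 51.0%, beside 40.9%. The NDRs that held sites were more often long, which the rule favors by construction, because a longer NDR has more positions that can hold a site. Of the BamHI, EcoRV and KpnI promoters 37.2%, 33.3% and 30.4% had an NDR of 300 bp or more, beside 24.5% of all ORF promoters. The part of NDR length in the motif shares was not tested.

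**Figure D5:**
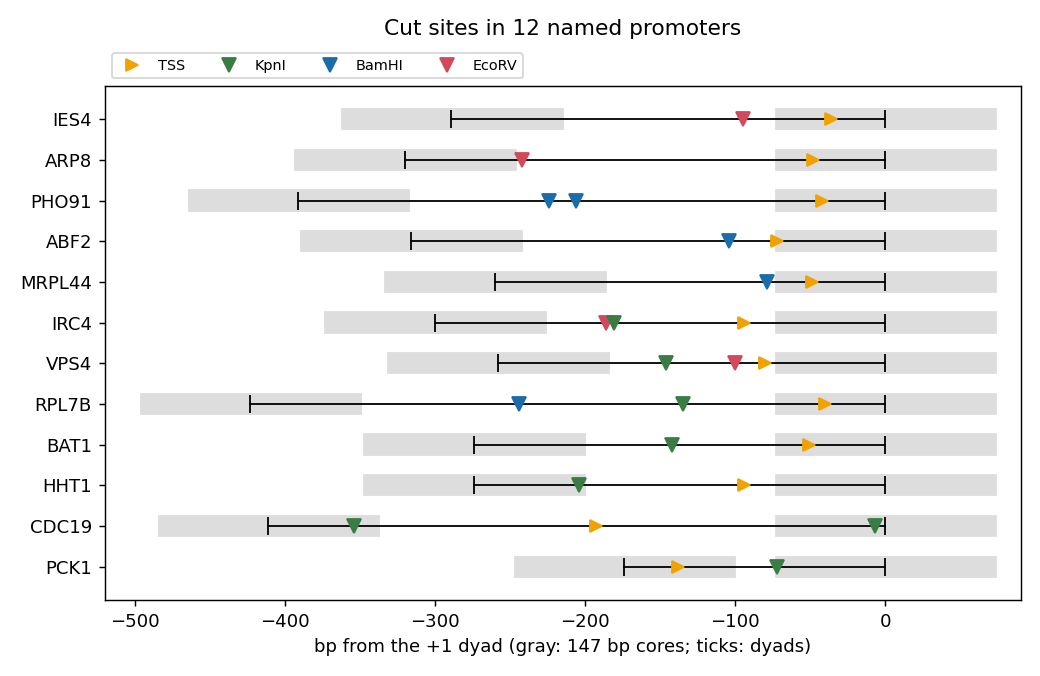
Maps of 12 named promoters, with the distance from the +1 dyad on the x axis in bp, the 147-bp cores in gray, the dyads as ticks, the TSS as an orange arrowhead and the cuts as triangles colored by enzyme. In IES4, PHO91, ABF2, IRC4, VPS4, RPL7B and BAT1 each cut lies between the gray cores, and in CDC19 both cuts lie inside them.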

How the data were processed

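The authors deposited lists of BamHI, EcoRV and KpnI cut positions and a table of promoter coordinates (TSS, +1 and -1 dyads, in bp), with no per-library values in the files used here. The submitters' processing notes name the build sacCer3 and the tools Bowtie and Bowtie2 2.2.9. Dyads came from 1 in vivo MNase-seq library whose multiply mapped reads the authors removed. Sites were matched to NDRs with Python 3.11.15 and scipy 1.17.1, and a site was outside both cores when over 73 bp from each dyad of every ORF promoter that held it. Coding sequence, orientation and sequences came from RefSeq R64, in which 4534 of 4536 ORF rows matched a gene. Shares carry 95% Wilson intervals, which cover counting error only, and enzymes were compared by Fisher's exact test with Benjamini-Hochberg adjustment over 3 pairs. The site classes were tested on simulated data, where 300 of 300 sites were placed correctly.

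Named promoters were the 5 closest to the TSS outside both cores, the 3 closest to 73 bp from the +1 dyad and the extremes per enzyme, 6 with sites of more than 1 enzyme and up to 4 per family. The other promoters with more than 1 site, the rest of the BamHI pairs outside both cores and those closest to a TTACCC were named after their values were seen, as were the motif CACGTG and the sequences printed. The members and lists were chosen with earlier results of these data known.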

Additional observations from a re-analysis of the deposited data

How the results depend on the processing

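The counts, shares, medians and differences between enzymes were recomputed under 69 alternatives, 12 of them chosen after seeing the data, and 66 stayed within 1.5 times the count, within the 95% interval or on the same side of the threshold. A core that reaches 60 bp from the dyad raised the share outside both cores, by construction, to 51.6% for KpnI, 47.8% for EcoRV and 29.4% for BamHI, and a core of 80 bp lowered it to 35.8%, 33.7% and 13.2%, while the share of NDR positions, each NDR on its own, went from 45.7% to 54.9% and 40.9%. Counting each site once, with its nearest +1 dyad, moved the EcoRV median distance to 114.5 bp. The BamHI median was then 76.5 bp and the KpnI median 138 bp. BamHI stayed below EcoRV and KpnI with a core of 60 or 80 bp to each side, the second +1 column, the site centre, noncoding sites and sites in unique windows, with adjusted p from 0.00181 to 0.0307 (Fisher's exact test). No paired analysis was possible because the results come from genome positions and not from samples. The dyads were called from reads of 1 in vivo library, and how its depth and the calling affect the classes was not tested. The number of sites, 68 for BamHI, also limits the precision of these values.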
